A study of Drosophila melanogaster with 3 samples.

Results

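The 10 genes that lay out the body plan of the early fruit fly embryo were followed across the peak lists of a ChIP-seq experiment on the promoter factor M1BP. They were chosen by name, as the genes bcd, zld, hb, Kr, gt, kni, tll, eve, ftz and run of the Ensembl annotation, and are 10 of 13945 protein-coding genes on the 6 main chromosome arms. In ChIP-seq, DNA bound by a protein is precipitated with an antibody and sequenced. It had been done on whole Drosophila melanogaster embryos of 0 to 24 h, males and females pooled, from a transgenic line that stably expresses CG9797 (M1BP) with green fluorescent protein (GFP) at its C-terminus. There was 1 group of 3 biological replicates, with no untagged or untreated group. The chromatin had been sonicated to 200 to 800 bp. The labels do not name the promoter that drives the fusion. One of their lines calls these libraries input controls, while the assay title, the antibody field (CG9797) and a control listed separately describe immunoprecipitated material. They were read as the latter, and every value below carries that conflict. In whole embryos of all ages, binding in few cells and weak binding in many cells cannot be told apart.

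As background, the anterior-posterior axis is set by a cascade of transcription factors. The mother loads bcd mRNA at the front of the egg, and Bicoid protein forms a gradient there. Maternal zld encodes Zelda, the pioneer factor that opens chromatin for the first zygotic transcription. The gap genes hb, Kr, gt, kni and tll are then switched on in broad domains, and the pair-rule genes eve, ftz and run in stripes. Of the gap genes, hb is both supplied by the mother and transcribed in the zygote, and has 2 promoters. M1BP is a zinc-finger protein known for binding Motif 1 in the core promoters of broadly active genes. For the comparison of maternal with zygotic genes, bcd, zld and hb were counted as maternal (3 genes) and the other 7 as zygotic.

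The authors' files hold 5 lists of peaks on assembly dm6. Each entry is an interval with a summit and a signal value, which is a score of unknown scale that came with the deposited peaks. The list of each replicate and the list of the 3 replicates pooled hold 30000 entries each, background included, and a thresholded list kept 4598 entries that passed the authors' filter on reproducibility (irreproducible discovery rate). All 4598 were the strongest entries of the pooled list. Entries were ranked by signal value within a list, rank 1 being the strongest, and assigned to a gene by a summit no more than 1000 bp from one of the gene's annotated start sites. The 3 replicates listed 8577, 3063 and 3520 entries with a −log10 q-value of at least 2, and their sequencing depth is unknown.

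The promoter sequences of the members that the results turn on are given first, so that the summits can be placed on them. They run from 220 bp before the start site to 30 bp from it, on the strand of the gene, in the NCBI Release 6 genome, and base 221 is the start site. Capitals mark matches to any of 5 motifs named below. The maternal promoters come first: bcd (chr3R:6759437-6759686, minus strand), the upstream promoter of zld (chrX:19783519-19783768, minus strand) and the upstream promoter of hb (chr3R:8697793-8698042, minus strand), known as its maternal one. They are followed by the downstream, zygotic promoter of hb (chr3R:8694571-8694820, minus strand), which carries the best-ranked hb entry beside it. The last ones are zygotic promoters with a listed summit in the window, gt (chrX:2428938-2429187, minus strand), ftz (chr3R:6864104-6864353, plus strand) and tll (chr3R:30852095-30852344, plus strand).
bcd: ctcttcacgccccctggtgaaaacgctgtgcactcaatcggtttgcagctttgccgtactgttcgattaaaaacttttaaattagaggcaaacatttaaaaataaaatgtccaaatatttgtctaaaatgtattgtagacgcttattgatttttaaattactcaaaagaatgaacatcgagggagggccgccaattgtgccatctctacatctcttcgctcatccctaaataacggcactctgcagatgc
zld upstream: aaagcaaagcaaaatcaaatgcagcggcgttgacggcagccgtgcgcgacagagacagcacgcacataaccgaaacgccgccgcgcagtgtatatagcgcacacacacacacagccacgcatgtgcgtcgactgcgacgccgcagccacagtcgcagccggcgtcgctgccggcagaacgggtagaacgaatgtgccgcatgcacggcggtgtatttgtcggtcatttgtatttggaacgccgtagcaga
hb upstream: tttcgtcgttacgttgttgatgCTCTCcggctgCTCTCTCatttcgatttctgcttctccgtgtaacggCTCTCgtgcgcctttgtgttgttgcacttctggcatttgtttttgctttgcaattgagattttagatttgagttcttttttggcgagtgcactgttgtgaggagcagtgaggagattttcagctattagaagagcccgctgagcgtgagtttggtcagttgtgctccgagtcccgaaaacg
hb downstream: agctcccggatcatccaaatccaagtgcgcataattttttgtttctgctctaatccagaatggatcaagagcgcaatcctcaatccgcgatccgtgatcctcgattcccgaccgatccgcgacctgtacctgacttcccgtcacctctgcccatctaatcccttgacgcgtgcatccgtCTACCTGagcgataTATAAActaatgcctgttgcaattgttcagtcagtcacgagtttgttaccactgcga
gt: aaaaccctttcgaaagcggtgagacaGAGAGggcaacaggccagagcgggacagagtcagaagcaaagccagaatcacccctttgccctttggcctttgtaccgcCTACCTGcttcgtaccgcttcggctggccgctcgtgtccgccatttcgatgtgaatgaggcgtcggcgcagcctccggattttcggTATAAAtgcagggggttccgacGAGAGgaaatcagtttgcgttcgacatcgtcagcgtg
ftz: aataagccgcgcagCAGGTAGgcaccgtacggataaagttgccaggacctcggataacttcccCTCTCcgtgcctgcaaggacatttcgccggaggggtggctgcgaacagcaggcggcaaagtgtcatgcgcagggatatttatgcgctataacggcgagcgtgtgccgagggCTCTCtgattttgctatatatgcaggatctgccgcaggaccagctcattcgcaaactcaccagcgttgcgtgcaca
tll: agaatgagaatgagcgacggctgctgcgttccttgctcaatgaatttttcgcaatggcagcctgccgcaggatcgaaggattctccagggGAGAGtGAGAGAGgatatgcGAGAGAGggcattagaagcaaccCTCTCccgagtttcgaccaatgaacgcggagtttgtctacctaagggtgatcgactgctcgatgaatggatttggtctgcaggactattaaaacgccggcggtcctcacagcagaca

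The motifs were searched on both strands in windows from 250 bp before to 50 bp after each of the 14 start sites of the 10 genes. The core of Motif 1, GGTCACAC, was in 0 of the 14 windows. It was in 6.72% of the 19253 windows of all protein-coding genes, and in 23.5% of the 4967 windows with a thresholded summit within 250 bp of the start site. The DRE, TATCGATA, another element of broadly active promoters, was also in 0 of 14, against 7.98% of all windows and 17.8% of those with a thresholded summit. The Zelda site, CAGGTAG, was in 4 of 14, at the downstream site of hb, the downstream site of kni, gt and ftz, against 1.69% of all windows and 1.03% of those with a thresholded summit. The TATA box, TATAAA, was in 4 of 14, in 42.2% of all windows and in 44.7% of those with a thresholded summit. Near its usual place it lay 27 bp before the downstream start site of hb, 29 bp before that of gt and 31 bp before that of eve, and the fourth match, in Kr, lay 243 bp before the start site. The GAGA element, GAGAG, was in 10 of 14, in 33.1% of all windows and in 22.9% of those with a thresholded summit. Its matches may overlap each other, and 0 matches of different motifs overlapped. In bcd the single match, a GAGA element 234 bp before the start site, lies outside the printed stretch, and the upstream promoter of zld has no match, so these 2 carry no capitals. These are matches of letters and do not show that a factor binds or fails to bind there.

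In the thresholded list 1 of the 10 genes, bcd, had a summit within 1000 bp of a start site. The same held for 36.7% of all protein-coding genes, and for 31.1% with a limit of 250 bp, at which the count of members was again 1. The bcd gene lies on 3R from 6755842 to 6759466 on the minus strand, with 1 start site. Its entry (3R, 6759339 to 6759854) had the summit at 6759597, 131 bp upstream of the start site and outside the gene, at base 90 of the printed sequence. Its signal value was 296, which is 55.1% of the list's median of 538, and its rank of 4125 means that 89.7% of the thresholded entries were stronger. No start site of another protein-coding gene was nearer to the summit, and the next gene, Ama, which encodes a secreted cell-adhesion protein, starts 3127 bp from that of bcd.

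The bcd entry ranked 4607 in replicate 1 (signal value 150, −log10 q-value 4.08), 3997 in replicate 2 (87.5 and 1.39) and 11424 in replicate 3 (33.9 and 0.138). All 3 replicates thus listed it, replicate 3 far lower than the others and close to its list's median signal value of 30.4. Its summit lay 194, 51 and 110 bp upstream of the start site in replicates 1, 2 and 3, at bases 27, 170 and 111 of the printed sequence. Replicate 2 listed a second, weaker summit 250 bp upstream, with rank 23305. Among all protein-coding genes, 36.9% had an entry of that rank or a better one in replicate 1, 32.4% in replicate 2 and 47.6% in replicate 3. A further entry, outside the limit and not assigned to bcd, lay upstream in each relaxed list, 1510 to 1778 bp from the start site. It ranked 7943, 15693 and 19012 in replicates 1, 2 and 3, and its distance to the start site of Ama was not measured.

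**Figure D1:**
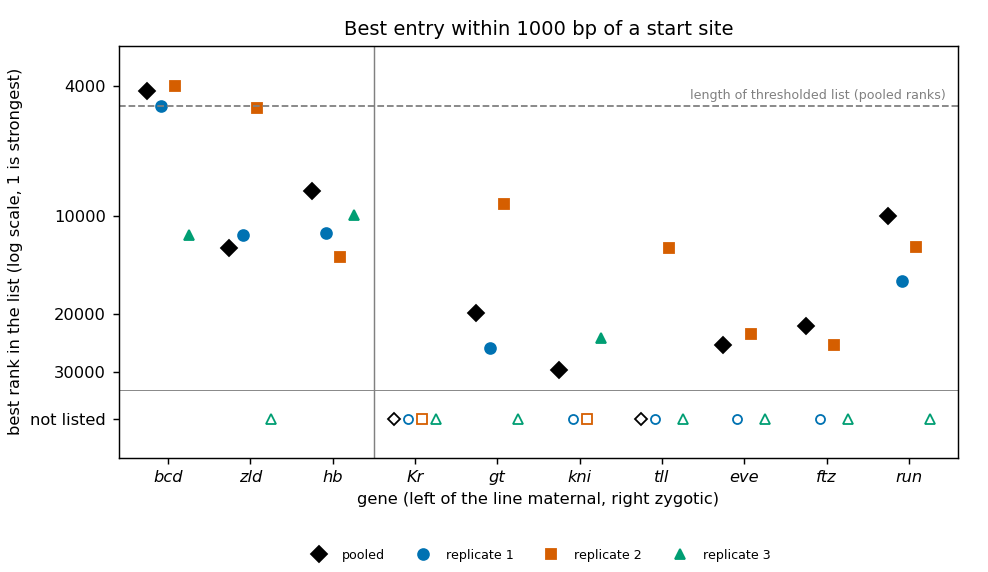
Best rank of each gene within 1000 bp of a start site, on a log scale with rank 1 at the top; filled marks are ranks in the pooled list and in the 3 replicate lists, and open marks show lists with no such entry. The 3 maternal genes are listed in all lists except zld in replicate 3, whereas Kr is in none, and the dashed line is rank 4598.

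The second maternal gene, zld (X, 19766465 to 19783548, minus strand), had no thresholded entry. Its nearest thresholded summit was 20751 bp away, at the promoter of CG12702. In the pooled list its best entry ranked 12523, with a signal value of 103 and the summit 37 bp upstream of the upstream start site, at base 184 of the printed sequence. The replicates differed widely. Replicate 1 ranked zld 11433 (signal value 53.4), replicate 2 ranked it 4644 (77.5), and replicate 3 did not list it. The summits of replicates 1 and 2 lay 75 and 39 bp upstream of the same start site. Replicate 2 also had an entry of rank 18260 in the 5′ UTR, 136 bp downstream of the other start site, and replicate 1 had an entry of rank 19956 at 958 bp, the entry closest to the 1000 bp limit from inside. The entry of replicate 2 stood at a rank that 35.0% of all genes reached, and that of replicate 1 at one that 51.4% reached.

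At hb (3R, 8690980 to 8697822, minus strand), which also had no thresholded entry, both promoters had entries. Beside the downstream start site at 8694600 the best entry ranked 8359 in the pooled list (signal value 139) and 11294, 13319 and 9888 in replicates 1, 2 and 3 (54.0, 40.9 and 36.0). These summits lay 197 bp downstream of the start site in the pooled list and 236, 191 and 228 bp downstream in the replicates, all in an intron of hb. Beside the upstream start site at 8697822 the best entry ranked 9493 in the pooled list (125), 14405 in replicate 1 (44.0) and 23492 in replicate 2 (30.7), and replicate 3 had none. The downstream site thus had the better rank in the pooled list and in each of the 3 replicates. Among all genes 51.3%, 50.5% and 45.8% reached its best rank in replicates 1, 2 and 3. Further entries lay in the intron between the promoters, 1075 to 1148 bp from a start site and so just outside the limit, in the pooled list and in all 3 replicates (pooled rank 12725). The nearest thresholded summit was 17758 bp away, between CG11755 and CG8043.

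Of the zygotic gap genes, Kr (2R, 25226611 to 25231394, plus strand), which encodes a zinc-finger repressor, had no entry within 1000 bp in any of the 5 lists, and none up to 2000 bp. It was the member with the lowest GC content around its start site, 41.5%, which equals the median over all genes. Its nearest thresholded summit lay 26648 bp away, at CG30428. At gt (X, 2427113 to 2428967, minus strand), which encodes a leucine-zipper factor, the best pooled entry ranked 19875 (signal value 79.0) with the summit 181 bp downstream of the start site in an intron, and a second lay 88 bp upstream with rank 22260. Replicate 1 ranked gt 25312 (29.5) and replicate 2 ranked it 9151 (49.7), the best rank of any zygotic member in a replicate, with the summit 100 bp upstream. Replicate 3 did not list it. Among all genes 58.8% reached the best rank of gt in the pooled list, 62.5% in replicate 1 and 45.2% in replicate 2.

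The other 2 zygotic gap genes encode members of the nuclear receptor family and had little signal. At kni (3L, 20692330 to 20695378, minus strand) the pooled entry ranked 29659 of 30000 (62.8), with the summit in a coding exon 923 bp downstream of the nearest start site. Replicate 3 listed an entry at 914 bp with rank 23664 (25.1), and replicates 1 and 2 listed none within the limit. Just outside it, 1168 bp from a start site and also in coding sequence, a pooled entry ranked 19355, so the order of kni among the members rests on the limit chosen. At tll (3R, 30852315 to 30854400, plus strand) only replicate 2 listed an entry within the limit, with rank 12534 (42.1) and the summit 131 bp upstream, at base 90 of the printed sequence. Beside that summit lies the cluster of GAGA elements shown in capitals. The pooled list had no entry there.

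The pair-rule genes had weak entries, and run had the best ranks among them. At run (X, 20690670 to 20697321, plus strand), which encodes a Runt-domain factor, the pooled list ranked the best entry 9961 (121), above zld. Its summit lay 416 bp upstream of the downstream start site, inside an intron. Replicates 1 and 2 placed summits 425 and 436 bp upstream of the same site with ranks 15834 (41.1) and 12428 (42.3), and replicate 3 had none within the limit. Among all genes 49.2% reached the best rank of run in the pooled list, 55.3% in replicate 1 and 49.4% in replicate 2. Beside the upstream start site of run no list had an entry within the limit. Replicate 2 had one just outside it, at 1051 bp with rank 24550. At eve (2R, 9979319 to 9980795, plus strand), which encodes a homeodomain factor, the pooled entry ranked 24849 (69.8) and lay 597 bp upstream. Replicate 2 ranked it 23021 (31.0), at 563 bp upstream, and had another in the coding exon 703 bp downstream, while replicates 1 and 3 had none. The nearest thresholded summit, 8153 bp away, marked the promoter of CG12134. At ftz (3R, 6864324 to 6866244, plus strand), a homeodomain gene within the homeotic Antennapedia complex, the pooled entry ranked 21704 (75.3), 88 bp upstream at base 133 of the printed sequence. Replicate 2 listed an entry 350 bp upstream with rank 24783 (29.8), and replicates 1 and 3 listed none. The nearest thresholded summit to ftz was the one at bcd, 104727 bp away.

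**Figure D2:**
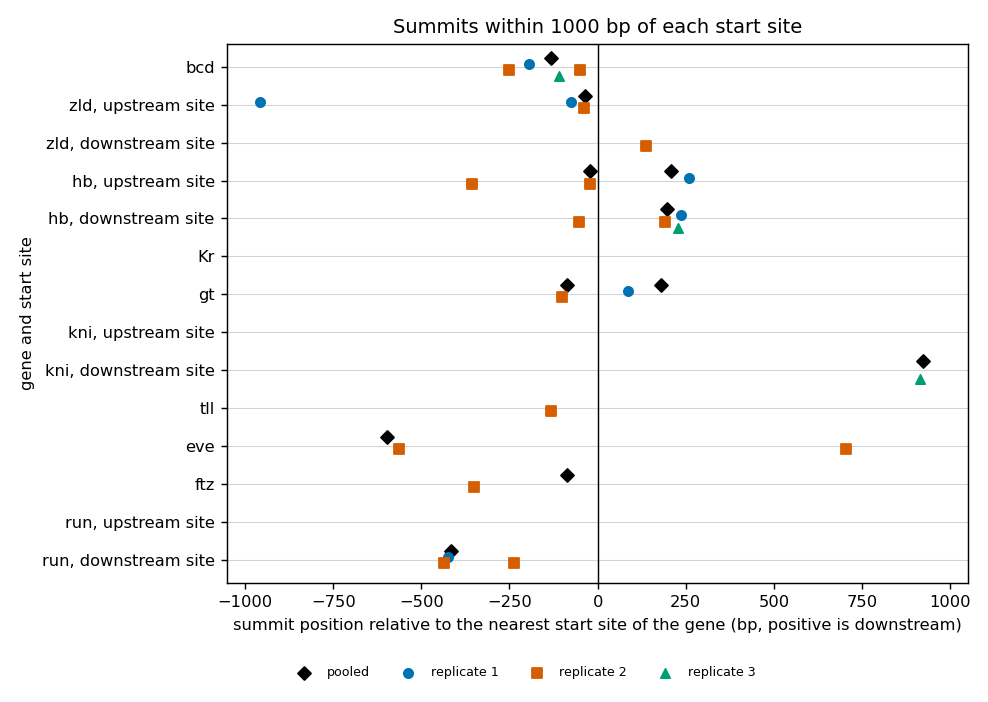
Position of every summit within 1000 bp of the 14 start sites, in bp relative to the nearest start site of that gene, with positive values downstream; marks show the pooled list and the 3 replicate lists. Summits of bcd and of the downstream hb site lie close together in all 3 replicates, 51 to 250 bp upstream at bcd and mostly 191 to 236 bp downstream at hb, and those of run lie 236 to 436 bp upstream of its downstream site.

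In all, the 5 lists held 37 entries for these genes. Start sites of other protein-coding genes lay at least 3112 bp from those of the members. Any summit within 1000 bp of a member therefore had that member nearest. Of the 10 genes, 2 were listed in all 3 replicates (bcd and hb), 3 in 2 replicates (zld, gt and run), 4 in 1 (kni, tll, eve and ftz) and 1 in none (Kr). Of all protein-coding genes, 47.3% were listed in all 3 replicates. In 4 places a list held 2 summits of a member within 250 bp of each other, 199 to 243 bp apart (bcd, hb and run in replicate 2 and hb in the pooled list). In all 4 the one of lower coordinate was the stronger, which is the downstream one at bcd and hb and the upstream one at run. The share over all such pairs in the lists is not given here, so no pattern is read from this. With a −log10 q-value of at least 2 required, bcd alone was left in the pooled list, where 40.9% of all genes were. It was likewise alone in replicate 1, where 47.9% of all genes had such an entry. Replicates 2 and 3 left 0 members, against 27.5% and 30% of all genes.

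Among the 10 genes, maternal ones had an entry more often than zygotic ones in every relaxed list, though several of the counts lay near the share of all genes. In the pooled list 3 of 3 maternal and 5 of 7 zygotic genes (71.4%) had one within 1000 bp, against 66.2% of all genes. With a limit of 250 bp the pooled counts were 3 of 3 and 2 of 7, against 50% of all genes. Replicate 1 listed 3 of 3 maternal and 2 of 7 zygotic genes, against 65.6% of all genes. Replicate 2 listed 3 of 3 and 5 of 7, against 63.3%. Replicate 3 listed 2 of 3 and 1 of 7, against 64.4%, and its hb entry lay at the downstream, zygotic promoter alone. The zygotic 5 of 7 in the pooled list and replicate 2 and the maternal 2 of 3 in replicate 3 thus lay near the shares of all genes. A maternal count of 3 of 3 is only 1 gene above 2 of 3. The mean share over the replicates was 88.9% ± 19.2 (SD, n = 3 replicates) for maternal and 38.1% ± 29.7 for zygotic genes, and the difference was 71.4, 28.6 and 52.4 percentage points in replicates 1, 2 and 3 (50.8 ± 21.5, SD, n = 3). The difference had the same sign in 3 of 3 replicates. Its SD is over lists of the same 3 and 7 genes, so it does not measure how much the choice of genes matters. It depends in part on how hb is counted. By its upstream, maternal start site alone, replicate 3 held 1 of 3 maternal genes, its difference was 19.0 percentage points, and the mean over replicates was 39.7. The mean was 37.5 percentage points with hb counted as zygotic and 45.2 without hb. No test was made, since the groups hold 3 and 7 genes that are not replicates of a condition.

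**Figure D3:**
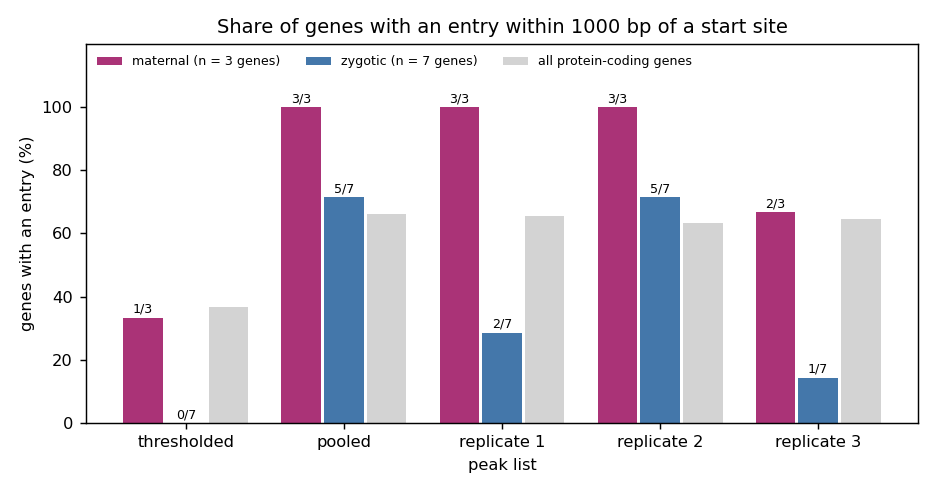
Percentage of genes with an entry within 1000 bp of a start site in each of the 5 lists, for the 3 maternal genes, the 7 zygotic genes and all 13945 protein-coding genes; the numbers above bars are genes with an entry over genes in the class. In replicates 1 and 3 the zygotic bars (2 of 7 and 1 of 7) stand below the bar of all genes. In the pooled list and replicate 2 they (5 of 7 in each, 71.4%) stand close to it (66.2% and 63.3%).

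The class medians of best rank also differed. Counting a gene with no entry at rank 30001, the median best rank in the pooled list was 8359 for maternal and 24849 for zygotic genes, a difference of 16490 ranks, and 10745 for all genes. The maternal median is the rank of hb at its downstream, zygotic promoter, and by the upstream site of hb it was 9493, a difference of 15356 ranks. The same difference was 18707, 18377 and 18577 ranks in replicates 1, 2 and 3, where unlisted genes set the zygotic median in replicates 1 and 3. By the upstream site of hb, replicate 3 showed no such difference, since both class medians were then 30001. The classes overlapped in the pooled list, in which run (9961) stood above zld (12523). They also overlapped in replicate 2, in which gt (9151), run (12428) and tll (12534) stood above hb (13319). In replicate 3 kni (23664) was listed and zld was not. They did not overlap in replicate 1. Over all 10 genes the median best rank was 20789.5 in the pooled list, 27656.5 in replicate 1, 12926.5 in replicate 2 and 30001 in replicate 3. For all protein-coding genes these medians were 10745, 10006, 12902 and 13176. The members thus stood below the median gene in the pooled list and in replicates 1 and 3, and close to it in replicate 2.

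Replicate 2 listed the most members, 8 against 5 and 3 (5.33 ± 2.52, SD, n = 3), although the share of all genes listed was similar in the 3 replicates (64.4% ± 1.14). GC content went with this in part. In the 500 bp around their start sites 9 of the 10 genes had a higher GC content than the median gene (41.5%), and 7 were above the upper quartile of all genes (45.5%). The 2 members that replicate 2 did not list, Kr and kni, were the 2 of lowest GC content (41.5% and 44.4%), and the 2 of highest, ftz and eve (53.7% and 60.1%), were listed by replicate 2 and by neither other replicate. Also listed by replicate 2 alone was tll (48.3%), which lay below gt and run (52.5% and 52.6%), listed by replicate 1 as well. Around the summits of the thresholded list, rather than around start sites, the median GC content was 39.7%. The part of GC content in these results was not tested. Of the 7 zygotic genes, 5 (48.3% to 60.1%) had a higher GC content than every maternal gene (45.5% to 46.9%), and Kr and kni had a lower one.

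The wider cascade was taken as textbook classes with the 10 genes included, hb among the gap genes, and is described by counts. The maternal gene nos and the pair-rule gene h matched no protein-coding gene name in the annotation and are missing from the counts. Of 14 maternal genes 8 had a thresholded summit within 1000 bp (57.1%), of 13 gap genes 1 (7.69%), of 11 pair-rule genes 1 (9.09%), and of 9 segment polarity genes 0. Without the 10 members the counts were 7 of 12 maternal genes (58.3%) and 2 of 25 in the 3 zygotic classes (8%), on both sides of the 36.7% of all genes. The maternal genes with a summit outside the members were pum, a translational repressor gene (rank 319, signal value 1657), stau and swa, needed to place bcd mRNA (1149 and 1363), exu, likewise (2903), Clamp and Trl, which encode the CLAMP and GAGA factors (2024 and 2293), and Stat92E, the transcription factor of JAK/STAT signalling (3327). All 7 ranked above bcd. Clamp, Trl and Stat92E were put in the maternal class beside the genes of axis patterning, so its share depends in part on that choice. Each of them had a summit, so the share is lower, and nearer to that of all genes, without them. Outside the members this leaves pum, stau, swa and exu with a summit, and osk, cad, tor, tsl and trk without. Ranks in replicates 1, 2 and 3 were 251, 572 and 183 for pum and 1129, 1859 and 653 for stau, while Clamp was not listed in replicate 2. The 2 zygotic genes were cnc (3064), with 10 start sites, and ftz-f1 (3838), with 3, a nuclear receptor gene that is also supplied by the mother. A gene with more start sites has a larger reach. Of the 7 maternal genes with a summit, pum and Trl have 4 start sites each, exu 3, stau and Stat92E 2, and swa and Clamp 1. The maternal genes osk, tor, tsl and trk, with 1 start site each, and cad and zld, with 2, had no thresholded summit. The part of the number of start sites in this was not tested.

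**Figure D4:**
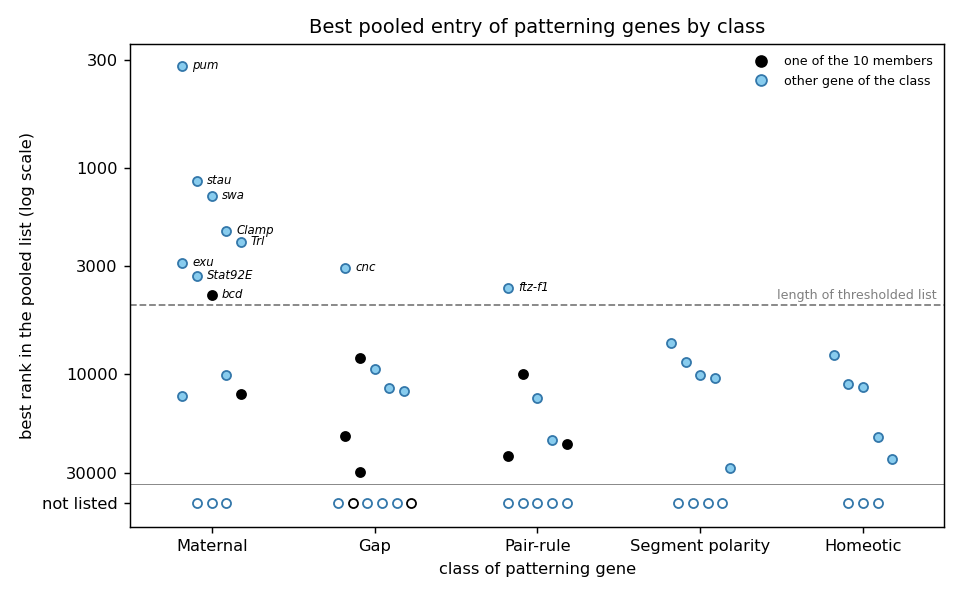
Best rank in the pooled list, on a log scale with strong entries at the top, of the genes of 5 patterning classes; black marks are the 10 members, open marks are genes with no entry within 1000 bp, and names are given for genes in the thresholded list. The maternal class has 8 named genes from rank 319 to 4125, and the segment polarity and homeotic classes have none.

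Replicate 2 also listed the wider zygotic classes most often. Outside the members it held 20 of 25 zygotic genes (80%), against 15 (60%) in replicate 1 and 6 (24%) in replicate 3, whereas the 12 maternal genes were listed 9, 7 and 9 times in replicates 1, 2 and 3 (75%, 58.3% and 75%). In replicate 2 the wider zygotic share was thus above the maternal one, the opposite of the order among the 10 genes. The shares of all genes were 65.6%, 63.3% and 64.4% in replicates 1, 2 and 3, so that the zygotic 60% of replicate 1 and the maternal 58.3% of replicate 2 lay near them. The 8 homeotic genes, a class added after values of these lists had been seen, were listed 4, 7 and 2 times in replicates 1, 2 and 3 (50%, 87.5% and 25%) and never in the thresholded list, which held 36.7% of all genes.

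The genes whose ranks over the 3 replicate lists were most like those of bcd were idc and trem, which share their entries (5015, 3978 and 11913), and CG2200 (5195, 4014 and 11627). Likeness was the sum of absolute differences of log10 rank over 3 lists, 0.057 for the first pair and 0.062 for CG2200, among 6598 genes listed in all 3. For hb they were Cad88C (13108, 13115 and 9671), shakB (10717, 11876 and 8783) and CG13983 (12948, 11906 and 10527), with sums of 0.081, 0.124 and 0.135. No other member was in all 3 lists.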

How the data were processed

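ChIP-seq peak lists of 3 biological replicates of 1 group were used. Per the deposited notes, each replicate's list was called from its alignment and a shared control, a pooled list from the 3 alignments with that control, and a thresholded list from these 4 lists. The assembly is dm6 per the labels. For the aligner, peak caller, threshold and versions, nothing is stated in the labels or notes. The deposited signal value is a score per peak, and its scale is unknown. The deposited −log10 q-value stops at a ceiling in each list. The deposited summit is an offset in bp. The files hold no counts, so depth is unknown and no interval from counts is given. Control libraries were not analysed here.

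Coordinates are counted from 1. Start sites of 13945 protein-coding genes came from Ensembl release 115 and sequence from NCBI Release 6, both on dm6 coordinates (99.88% of 16213 start codons read ATG). Summits within 1000 bp of a start site were assigned, and signal values were ranked within lists. Scores were not compared between lists. GC content was taken 250 bp to each side of a start site and averaged over a gene's start sites. By rule the text names all 10 genes, any other gene nearest to their entries, the wider genes with a thresholded summit, and the 3 genes most alike to a member in all 3 replicate lists. Outside the rule, genes at the nearest thresholded summits, Ama, and the maternal genes cad, osk, tor, tsl and trk were named after their values were seen, and the homeotic class was added after them. The members and lists were chosen with earlier results of these data known, so nothing was tested and all comparisons are descriptions. Of the wider list, 2 symbols (nos and h) matched no protein-coding gene name and were not analysed here. Alternatives changed the distance, start sites, assignment, q-value, class of hb and replicates. The assignment step was checked on made-up peaks. Python 3.11.15, numpy 2.4.6, pandas 2.3.3 and matplotlib 3.10.9 were used.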

Additional observations from a re-analysis of the deposited data

How the results depend on the processing

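The count of 1 member in the thresholded list was 1 with limits of 250, 500 and 2000 bp and with the other start-site and assignment rules. The q-value limit could not change it, since every thresholded entry passes, and it was 1 without replicate 1, 2 or 3, where entries needed a summit within 100 bp in both remaining replicate lists, which can remove members but not add any. The pooled count of 8 was 5 with a limit of 250 bp and 1 with a −log10 q-value of at least 2; under that q-value limit the share of all genes went from 66.2% to 40.9%. The same limit lowered the mean count per replicate from 5.33 to 0.333, the maternal minus zygotic share from 50.8 to 11.1 percentage points and the difference of median ranks from 16490 to 0. Without 1 replicate the mean count ranged from 4 to 6.5 and the difference of shares from 40.5 to 61.9 percentage points, the lowest without replicate 1 and the highest without replicate 2. The difference of median ranks in the pooled list was 21642 with limits of 250 and 500 bp, 20508 with the most upstream start site alone, 13345 with a limit of 2000 bp or with any base of the interval in reach, 14952.5 with hb counted as zygotic, 15356 with hb by its upstream start site alone (chosen after seeing the data) and 14480 with entries near a stronger one dropped. In these the cause was not tested. Of 51 alternatives 38 left a difference within its SD over replicates or a count within a factor of 1.5 of the one reported. Many of the 51 are counts, which have no sign to reverse. The differences kept their sign, except that the q-value limit took that of median ranks to 0. The 38 include settings that could not act. The rule that no start site of another gene be nearer could remove no entry, since other genes start at least 3112 bp from the members' start sites. With 3 maternal genes, 1 gene decides a large part of each share. No paired analysis was possible because there is 1 group.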
